A study of Mus musculus with 4 samples.

Results

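The 3 Gadd45 genes, Trp53 and 6 p53 target genes (Mdm2, Ccng1, Trp53inp1, Btg2, Bax and Zmat3) were followed in tissue beside mouse pancreatic tumours. They were found by symbol, which matched 10 of the 55401 gene identifiers in the count table. The genes were selected on measured values, with earlier results of the same CRFR1-KO against WT comparison in view. The fold changes of these 10 genes are therefore a description, and nothing is supported with them.

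CRFR1-KO mice carried a conditional deletion of CRFR1, the receptor for corticotropin-releasing factor encoded by Crhr1, and WT mice were its wild-type comparison. The title of the series places the receptor in mast cells. All 4 libraries, 2 per genotype, came from tissue lying next to Panc02 tumours, Panc02 being a mouse pancreatic ductal adenocarcinoma line. The labels give neither the promoter that drives the deletion nor the strain, age or sex of the mice, and they do not say that the 2 libraries of a genotype came from different animals. The p-values below thus rest on library-to-library spread, part of which may be technical.

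Gadd45a, Gadd45b and Gadd45g encode small acidic proteins that are induced by DNA damage, growth arrest or cytokines. They bind the cell cycle inhibitor p21, the replication clamp PCNA and the Cdk1-cyclin B1 complex, and they activate the kinase MEKK4 (Map3k4), which acts upstream of p38 and JNK. p53 is a transcription factor that is stabilised by DNA damage. It switches on genes for cell cycle arrest, apoptosis and repair, and Mdm2, one of its targets, encodes the ubiquitin ligase that marks p53 for degradation. Gadd45a is a long-known p53 target, whereas Gadd45b and Gadd45g are better known as genes that respond to cytokines and NF-kappaB.

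Libraries held between 63495457 and 71203640 counts, of which 53.7% to 56.7% fell on a list of 24 acinar genes; the labelled pancreatic tissue thus showed its acinar markers at high levels. Crhr1 itself had 0 counts in all 4 libraries. At 3 counts per library this allows up to 0.048 CPM (the usual scaled count unit, here on TMM-scaled library sizes) in CRFR1-KO and 0.0458 CPM in WT, so the deletion could not be checked from its own gene. Of 10 mast cell markers, 6 were at 0 in every library, Cma1, Mcpt4, Tpsb2, Tpsab1, Ms4a2 and Fcer1a, and the whole list summed to 15.3 and 11.3 CPM in CRFR1-KO and 12.2 and 14.8 CPM in WT. Kit, which other cell types also express, made up most of that sum, with 13.98 and 10.7 CPM in CRFR1-KO and 11.4 and 13.7 CPM in WT, and Cpa3, Gata2 and Hdc were each under 1 CPM in every library.

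For Gadd45g and Gadd45b, the CRFR1-KO libraries both lay below the WT pair, and Gadd45a was scarce in both genotypes. Gadd45g (ENSMUSG00000021453; chromosome 13, 51846678 to 51848468, plus strand, GRCm38) had 206 and 200 counts in CRFR1-KO, against 579 and 750 in WT. On scaled library sizes this was 3.30 and 3.06 CPM in CRFR1-KO and 7.00 and 11.5 CPM in WT. The CRFR1-KO libraries lay close together, and the WT libraries lay further apart, with WT 2 the highest of the 4. The means were 3.18 ± 0.17 CPM in CRFR1-KO and 9.23 ± 3.15 CPM in WT (SD, n = 2 libraries each). On the log2 scale CRFR1-KO over WT came to -1.54, with a standard error (SE) of 0.27 and a 95% interval of -2.18 to -0.89. It was -1.85 without WT 1 and -1.14 without WT 2.

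Gadd45b (ENSMUSG00000015312; chromosome 10, 80930073 to 80932204, plus strand, GRCm38) had 69 and 79 counts in CRFR1-KO, against 257 and 196 in WT. Its levels were 1.10 and 1.21 CPM in CRFR1-KO and 3.11 and 2.99 CPM in WT. Both genotypes were tight, and the gap between them exceeded the spread within either. The means were 1.16 ± 0.073 CPM in CRFR1-KO and 3.05 ± 0.081 CPM in WT (SD, n = 2 libraries each), a log2 fold change of -1.40 (SE 0.30, 95% interval -2.10 to -0.70). Exact 95% Poisson intervals, which treat each deposited count as 1 independent read, ran from 0.859 to 1.504 CPM over the CRFR1-KO libraries. Over the WT libraries they ran from 2.59 to 3.51 CPM. The intervals of the CRFR1-KO libraries did not overlap those of the WT libraries. Such intervals leave out spread between libraries, and they may be too narrow, since the reads behind a count are unknown. Gadd45b was selected on this comparison, so nothing is read from that gap.

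Gadd45a (ENSMUSG00000036390; chromosome 6, 67035096 to 67037457, minus strand, GRCm38) had 23 and 29 counts in CRFR1-KO, against 28 and 19 in WT. At 0.368 and 0.443 CPM in CRFR1-KO and 0.339 and 0.290 CPM in WT, the groups were separated by a margin far inside their Poisson intervals. The Poisson intervals spanned 0.233 to 0.636 CPM in CRFR1-KO and 0.175 to 0.490 CPM in WT. Its estimate of 0.36 on the log2 scale carried an SE of 0.74 and a 95% interval of -1.38 to 2.10, and no difference was detectable at this depth. Over 337 bp of its exons, or 19.1% of their length, Gadd45a lies opposite the gene model E230016M11Rik, which had 16 and 17 counts in CRFR1-KO and 35 and 4 in WT. Whether the counting used strand is not given in the sources used here, so reads over that stretch cannot be assigned with certainty.

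**Figure D1:**
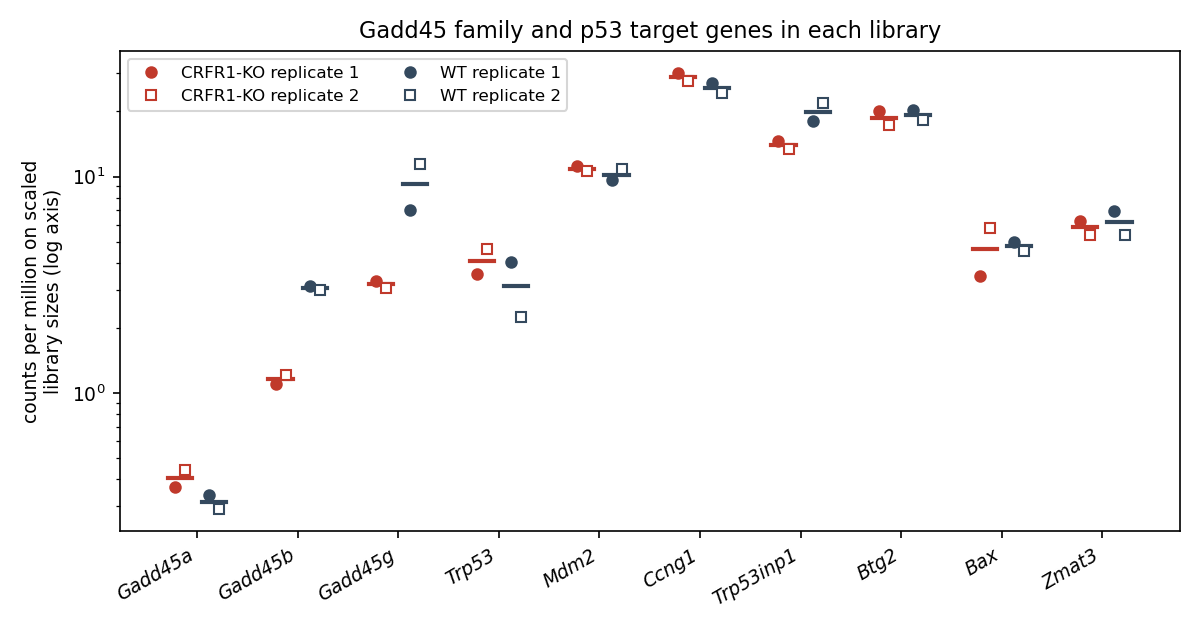
CPM on scaled library sizes (log axis) for the 10 genes, with CRFR1-KO in red and WT in dark blue, replicate 1 as filled circles, replicate 2 as open squares and a bar at the mean of 2 libraries. Gadd45b and Gadd45g show the widest gaps, with CRFR1-KO at 1.10 to 1.21 and 3.06 to 3.30 CPM and WT at 2.99 to 3.11 and 7.00 to 11.5 CPM, while Mdm2, Btg2, Bax and Zmat3 overlap.

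Per kilobase of exon, the scale on which genes can be compared, Gadd45g made up most of the family in every library. The 3 genes summed to 3.71 and 3.62 CPM per kilobase in CRFR1-KO, against 8.12 and 11.8 in WT, and the mean in WT was 2.72 times that in CRFR1-KO. Gadd45g supplied 75.7% and 72.1% of the sum in CRFR1-KO and 73.5% and 82.7% in WT. Gadd45b supplied 18.7% and 21.01% in CRFR1-KO and 24.1% and 15.95% in WT. The shares of Gadd45g and Gadd45b overlapped between genotypes although the sum differed. Gadd45a took 5.62% and 6.95% in CRFR1-KO and 2.37% and 1.39% in WT, a higher share of a smaller sum.

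**Figure D2:**
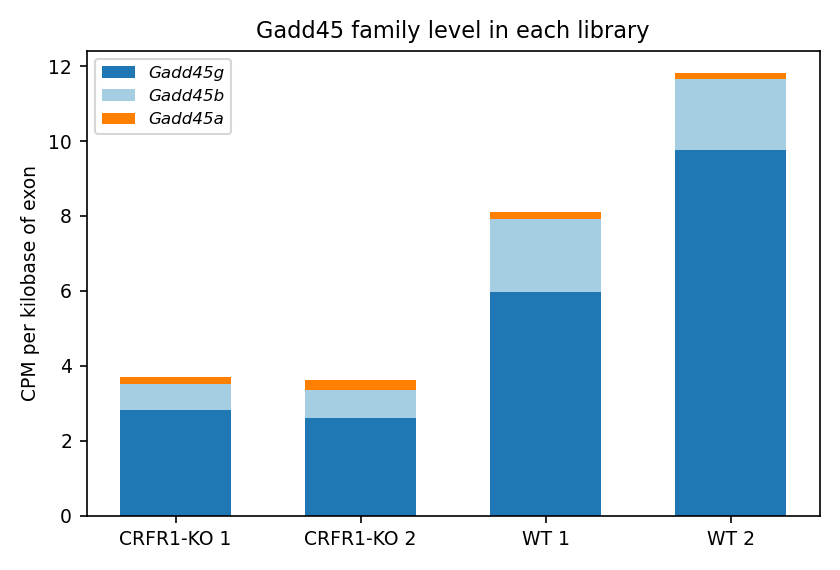
Level of the Gadd45 family in each library in CPM per kilobase of exon, with Gadd45g, Gadd45b and Gadd45a stacked from the bottom. The bars reach 3.71 and 3.62 in CRFR1-KO, against 8.12 and 11.8 in WT, and Gadd45g forms between 72.1% and 82.7% of each bar.

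The promoters of the family are shown because the family is the centre of these results and its members differ in the motifs found there. The sequences are the 200 bases upstream of the RefSeq transcription start on GRCm38.p6, 5′ to 3′ on the gene's strand. Gadd45a is at chr6:67037408-67037607 (minus strand), Gadd45b at chr10:80929891-80930090 (plus strand) and Gadd45g at chr13:51846475-51846674 (plus strand). Capitals mark a p53 half-site in Gadd45a and the TATA box motif TATAAA in Gadd45b and Gadd45g. For Gadd45a and Gadd45b the gene positions given above begin further upstream than the RefSeq start. The last bases shown for both, including the Gadd45a half-site, thus lie inside those gene positions.
Gadd45a: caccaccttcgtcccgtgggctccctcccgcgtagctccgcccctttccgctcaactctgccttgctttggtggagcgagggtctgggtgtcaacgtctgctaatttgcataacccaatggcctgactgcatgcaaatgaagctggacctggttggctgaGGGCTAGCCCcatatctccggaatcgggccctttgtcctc
Gadd45b: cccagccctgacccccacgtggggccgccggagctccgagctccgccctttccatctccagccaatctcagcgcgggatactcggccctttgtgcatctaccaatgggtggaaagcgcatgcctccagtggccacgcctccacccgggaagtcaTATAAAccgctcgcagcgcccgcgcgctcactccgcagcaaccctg
Gadd45g: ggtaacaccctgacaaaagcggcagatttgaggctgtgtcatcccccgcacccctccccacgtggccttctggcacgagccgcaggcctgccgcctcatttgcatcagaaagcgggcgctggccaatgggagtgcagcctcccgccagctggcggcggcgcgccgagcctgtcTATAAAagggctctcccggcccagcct

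The motif search covered 250 bases before to 50 after the start on both strands, in 32851 RefSeq promoters. The p53 half-site (the consensus decamer of p53 response elements, which reads the same on both strands) was present in 8.36% of all promoters and in 5 of the 8 promoters matched by symbol to the 10 genes (all but Trp53inp1 and Zmat3), namely Gadd45a, Trp53, Mdm2, Ccng1 and Bax. TATAAA was present in 13.62% of all promoters and in 3 of the 8, with its first base at position -46 in Gadd45b and -27 in Gadd45g relative to the start, on the gene's strand, and at -248 in Trp53 on the opposite strand. CCAAT was present in 37.41% of all promoters and in 7 of the 8, all but Bax. No half-site overlapped a TATAAA in these 8. A match describes letters in this window and not a bound site.

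Trp53 and its negative regulator Mdm2 did not separate by genotype. Trp53 (ENSMUSG00000059552; chromosome 11, 69580359 to 69591873, plus strand, GRCm38) had 222 and 302 counts in CRFR1-KO, against 332 and 147 in WT. This was 3.55 and 4.61 CPM in CRFR1-KO and 4.02 and 2.25 CPM in WT, with WT 2 the lowest library. The log2 fold change was 0.38 (SE 0.33, 95% interval -0.40 to 1.16), and it was 0.86 without WT 1 and 0.03 without WT 2. Mdm2 (ENSMUSG00000020184; chromosome 10, 117688875 to 117710758, minus strand, GRCm38) had 701 and 691 counts in CRFR1-KO, against 793 and 708 in WT. At 11.2 and 10.6 CPM in CRFR1-KO and 9.59 and 10.8 CPM in WT it overlapped between genotypes (log2 fold change 0.09, SE 0.17, 95% interval -0.30 to 0.49). With scaling on library totals, where the median of all genes was -0.13, Mdm2 stood at -0.03. The ratio of Mdm2 to Trp53 CPM was 3.16 and 2.29 in CRFR1-KO and 2.39 and 4.82 in WT, and the groups overlapped. RNA levels do not measure p53 protein or its activity.

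The arrest genes Ccng1 and Btg2 had log2 fold changes close to 0, with intervals on both sides of it. Ccng1, encoding cyclin G1, which works in p53 feedback (ENSMUSG00000020326; chromosome 11, 40748552 to 40755311, minus strand, GRCm38), had 30.2 and 27.7 CPM in CRFR1-KO, against 27.1 and 24.2 CPM in WT. Both CRFR1-KO libraries lay above both WT libraries, the lower of them by a margin smaller than the gap between the WT libraries. The log2 fold change was 0.17 (SE 0.17, 95% interval -0.22 to 0.57). Btg2, an antiproliferative gene whose product recruits deadenylases to mRNA (ENSMUSG00000020423; chromosome 1, 134075170 to 134079120, minus strand, GRCm38), had 20.2 and 17.2 CPM in CRFR1-KO, against 20.3 and 18.3 CPM in WT. Its groups overlapped, with a log2 fold change of -0.04 (SE 0.17, 95% interval -0.45 to 0.36).

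Of the genes on the apoptosis and stress side, Trp53inp1 lay lower in both CRFR1-KO libraries, while Bax and Zmat3 overlapped. Trp53inp1, encoding a nuclear protein that promotes p53-dependent apoptosis and autophagy (ENSMUSG00000028211; chromosome 4, 11156431 to 11174379, plus strand, GRCm38), had 909 and 882 counts in CRFR1-KO, against 1491 and 1433 in WT. Its levels were 14.5 and 13.5 CPM in CRFR1-KO and 18.0 and 21.9 CPM in WT, with no overlap. The log2 fold change was -0.51 (SE 0.17, 95% interval -0.92 to -0.10), and it lay between -0.64 without WT 1 and -0.36 without WT 2. Bax, which encodes a pore-forming protein of the mitochondrial outer membrane (ENSMUSG00000003873; chromosome 7, 45461697 to 45466898, minus strand, GRCm38), had 3.47 and 5.77 CPM in CRFR1-KO, against 5.01 and 4.55 CPM in WT. The CRFR1-KO libraries were the lowest and the highest of the 4, so that the log2 fold change of -0.05 (SE 0.28, 95% interval -0.71 to 0.61) became 0.27 without CRFR1-KO 1 and -0.45 without CRFR1-KO 2. Zmat3, encoding an RNA-binding zinc finger protein (ENSMUSG00000027663; chromosome 3, 32334792 to 32366014, minus strand, GRCm38), had 6.26 and 5.39 CPM in CRFR1-KO, against 6.93 and 5.38 CPM in WT (log2 fold change -0.08, SE 0.22, 95% interval -0.59 to 0.43).

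The p53 half-sites of the other 4 genes are shown in 50 bases each, in capitals, with the gene's strand read 5′ to 3′ on GRCm38.p6. Trp53 is at chr11:69580264-69580313 (plus strand), Mdm2 at chr10:117710915-117710964, Ccng1 at chr11:40755442-40755491 and Bax at chr7:45467070-45467119 (all minus strand). The fifth sequence is the cyclic AMP response element TGACGTCA of Btg2 at chr1:134079293-134079342 (minus strand), a motif found in 1.79% of all promoters and, among the 8, in Btg2 alone. It is shown because cyclic AMP is a messenger through which CRFR1 is known to signal, and nothing is drawn from the match.
Trp53: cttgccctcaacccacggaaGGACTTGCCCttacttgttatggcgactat
Mdm2: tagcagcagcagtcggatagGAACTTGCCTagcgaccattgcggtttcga
Ccng1: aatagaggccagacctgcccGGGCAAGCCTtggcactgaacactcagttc
Bax: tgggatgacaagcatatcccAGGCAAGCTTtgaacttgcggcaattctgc
Btg2: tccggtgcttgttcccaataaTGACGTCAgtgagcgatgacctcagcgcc

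Ordered by mean level per kilobase over the 4 libraries, the 10 genes ran from Ccng1 (7.77 ± 0.70), Btg2 (6.92 ± 0.54) and Gadd45g (5.29 ± 3.36) through Bax (2.98 ± 0.61), Trp53inp1 (2.62 ± 0.59), Mdm2 (2.08 ± 0.14) and Gadd45b (1.32 ± 0.69) to Trp53 (0.892 ± 0.249), Zmat3 (0.524 ± 0.066) and Gadd45a (0.204 ± 0.036 CPM per kilobase, SD, n = 4 libraries). Every neighbour in that order overlapped the next in range over the libraries, except that Gadd45a lay below Zmat3. Gadd45g had the widest range, 2.60 to 9.77 CPM per kilobase, and its place in the order depended on the genotype. In CRFR1-KO its mean of 2.71 CPM per kilobase lay below Ccng1 (8.24), Btg2 (6.82) and Bax (2.93). In WT its mean of 7.87 was the highest of the 10, ahead of Ccng1 (7.31) and Btg2 (7.03), with overlapping ranges. Among 15120 tested genes with an exon length, 93.9% lay below Ccng1, 90.7% below Gadd45g, 65.3% below Gadd45b and 21.4% below Gadd45a.

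Sequence shared with other genes was limited. No stretch of 50 bases in the annotated transcripts of Gadd45a, Gadd45b, Gadd45g, Ccng1, Trp53inp1 or Btg2 recurred in a transcript of another gene in GENCODE M21. In Bax 8.51% of the stretches recurred, all in the gene model Gm45808, which had 3 and 0 counts in CRFR1-KO and 3 and 0 in WT. In Trp53, Mdm2 and Zmat3 the shares were 3.88%, 1.21% and 0.723%.

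All 10 genes passed the filter on low counts. None passed edgeR's quasi-likelihood test after Benjamini-Hochberg adjustment over the 15131 genes tested (0 of 10, where 0.0264% of all genes passed), and 3 of 10, Gadd45g, Gadd45b and Trp53inp1, had an unadjusted edgeR p under 0.05 (4.86% of all genes, of which 3.15% lower and 1.71% higher). DESeq2 called 1 of 10, Gadd45g, where 0.377% of all genes were called, and limma-voom 0 of 10, where the share was 0.0%. Both CRFR1-KO libraries lay below both WT libraries for 3 of 10, against 16.9% of all genes, and above them for 2 of 10, Gadd45a and Ccng1, against 16.6%. Since the genes were selected on this comparison, nothing is read from these counts.

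Marker sums of several other cell types were also lower in CRFR1-KO, alongside Gadd45g and Gadd45b. A list of 12 fibroblast markers, all detected, summed to 194 and 215 CPM in CRFR1-KO and 581 and 270 CPM in WT, and 11 of the 12 genes had a negative log2 fold change (median -1.02). A list of 12 macrophage markers summed to 47.9 and 76.6 CPM in CRFR1-KO and 133 and 96.5 CPM in WT. All 11 that were tested had a negative log2 fold change (median -0.84). Marco, with 4 and 0 counts in CRFR1-KO and 0 in both WT libraries, was not tested. A list of 12 duct epithelium markers, all detected, summed to 287 and 270 CPM in CRFR1-KO and 416 and 314 CPM in WT. Of its genes 9 were lower and 3 higher (median -0.21). Spp1 differed most within that sum, with 44.8 and 46.8 CPM in CRFR1-KO and 133.6 and 72.9 CPM in WT. The separation of the duct sum rested on Spp1, and without it the genotypes overlapped. The fibroblast, macrophage and duct sums were highest in WT 1. Most single fibroblast markers were also highest in WT 1, while Dpt was highest in CRFR1-KO 2 and Pdgfra, Dcn and Fap in WT 2. Pdgfra had 5.34 and 6.66 CPM in CRFR1-KO and 8.55 and 11.8 CPM in WT. Dcn had 55.3 and 54.5 CPM in CRFR1-KO and 65.7 and 88.4 CPM in WT. These single markers were named after their values were seen. The acinar sum overlapped between genotypes on scaled library sizes, at 622300 and 550300 CPM in CRFR1-KO and 455400 and 583900 CPM in WT. As a share of raw counts it did not overlap, with 55.5% and 56.7% in CRFR1-KO and 53.8% and 53.7% in WT. Of the 24 acinar genes 5 were lower and 19 higher in CRFR1-KO (median log2 fold change 0.21). Over all genes tested 50.8% were lower. The part of these cell types in the levels of Gadd45g and Gadd45b was not tested, and in bulk tissue fewer cells of a type cannot be told apart from less RNA per cell.

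**Figure D3:**
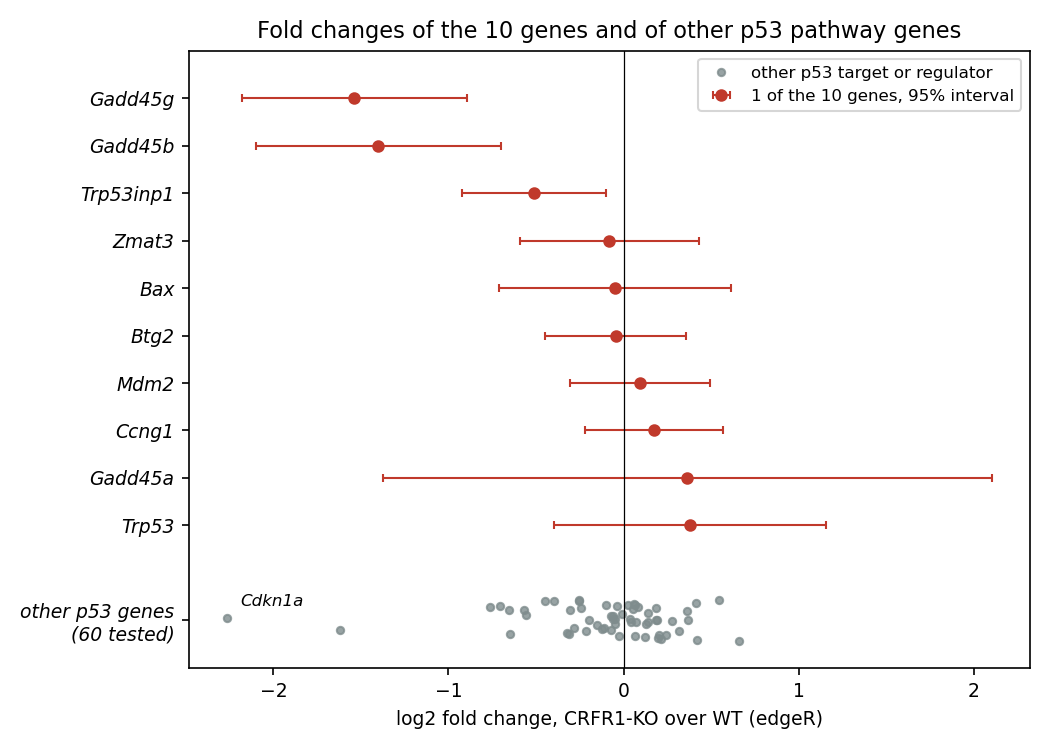
Log2 fold changes, CRFR1-KO over WT, from edgeR for the 10 genes (red, with 95% intervals) and for 60 other tested p53 targets and regulators (grey, spread vertically for legibility). Gadd45g and Gadd45b stand at -1.54 and -1.40, and among the grey points Cdkn1a stands lowest at -2.26.

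The other genes of the p53 pathway, 40 targets and 24 regulators, were split between both directions. Of the 60 that were tested, 32 were lower and 28 higher in CRFR1-KO, where 50.8% of all 15131 genes tested were lower. The median log2 fold change was -0.03, beside -0.01 over all genes tested. In edgeR 0 of 60 passed the adjusted threshold (0.0264% of all genes), and 1 had an unadjusted p under 0.05 (4.86% of all genes). By adjusted p, DESeq2 called 1 (0.377% of all genes) and limma-voom 0 (0.0% of all genes). The median of the list changed sign when 1 library was left out, to 0.03 without WT 1 and 0.05 without CRFR1-KO 2.

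Cdkn1a, which encodes the cell cycle inhibitor p21 and is the best-known p53 target for arrest, had the lowest fold change in the list and the smallest p. It had 74 and 223 counts in CRFR1-KO, against 595 and 977 in WT. The levels were 1.18 and 3.41 CPM in CRFR1-KO and 7.20 and 14.9 CPM in WT. The groups did not overlap, but within each genotype the libraries differed by more than 2-fold. The means were 2.295 ± 1.57 CPM in CRFR1-KO and 11.1 ± 5.5 CPM in WT (SD, n = 2 libraries each), or -2.26 ± 0.53 (SE) on the log2 scale. Cdkn1a missed the threshold of edgeR's quasi-likelihood test after adjustment (adjusted p = 0.718), and DESeq2 called it lower in CRFR1-KO (adjusted p = 0.00319), the smallest of its adjusted p-values over the alternatives, which reached 1.0. Its log2 fold change was -3.21 without CRFR1-KO 2 and -1.64 without WT 2. Its promoter held 2 p53 half-sites in the same window, at positions -73 and -51.

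The other targets named had smaller estimates than Cdkn1a. Fdxr, encoding ferredoxin reductase, had 1.79 and 1.62 CPM in CRFR1-KO, against 2.58 and 2.80 CPM in WT (log2 fold change -0.65, SE 0.29). Sesn1, encoding a stress-induced inhibitor of mTORC1, had 13.9 and 12.25 CPM in CRFR1-KO, against 12.97 and 29.7 CPM in WT (log2 fold change -0.71, SE 0.36). For Sesn1 WT 2 alone stood high, and WT 1 lay between the CRFR1-KO libraries. Gpx1, encoding glutathione peroxidase, had 34.0 and 36.5 CPM in CRFR1-KO, against 27.1 and 31.1 CPM in WT (log2 fold change 0.28, SE 0.17). The apoptosis genes Bbc3 (PUMA) and Pmaip1 (NOXA) were at 1.68 and 2.09 CPM in CRFR1-KO and 2.19 and 2.40 CPM in WT for Bbc3, and at 12 and 0 counts in CRFR1-KO and 12 and 9 counts in WT for Pmaip1. Both were chosen after their values were seen.

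Among the regulators of p53 no gene passed a test. Of 21 tested, 9 were lower and 12 higher, where 50.8% of all genes tested were lower. An unadjusted edgeR p under 0.05 was found for 0 (4.86% of all genes). After adjustment 0 passed in edgeR (0.0264% of all genes), DESeq2 (0.377%) or limma-voom (0.0%). Mdm4, encoding the partner of Mdm2 that represses p53, had 23.4 and 20.3 CPM in CRFR1-KO, against 23.6 and 21.5 CPM in WT (log2 fold change -0.05, SE 0.17). Prkdc, encoding the catalytic subunit of DNA-dependent protein kinase, had 5.06 and 4.93 CPM in CRFR1-KO, against 3.97 and 3.48 CPM in WT (0.42 on the log2 scale, SE 0.21). The deacetylase gene Sirt1, the acetyltransferase gene Kat5 and the ubiquitin ligase gene Rchy1 stood at 0.37, 0.36 and 0.21 on the log2 scale. Cdkn2a, which encodes the Mdm2 inhibitor ARF, had 0 counts in both CRFR1-KO libraries and 0 and 4 in WT. The p53 relatives Trp63 and Trp73 each had 4 and 0 counts in CRFR1-KO and 0 in both WT libraries.

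**Figure D4:**
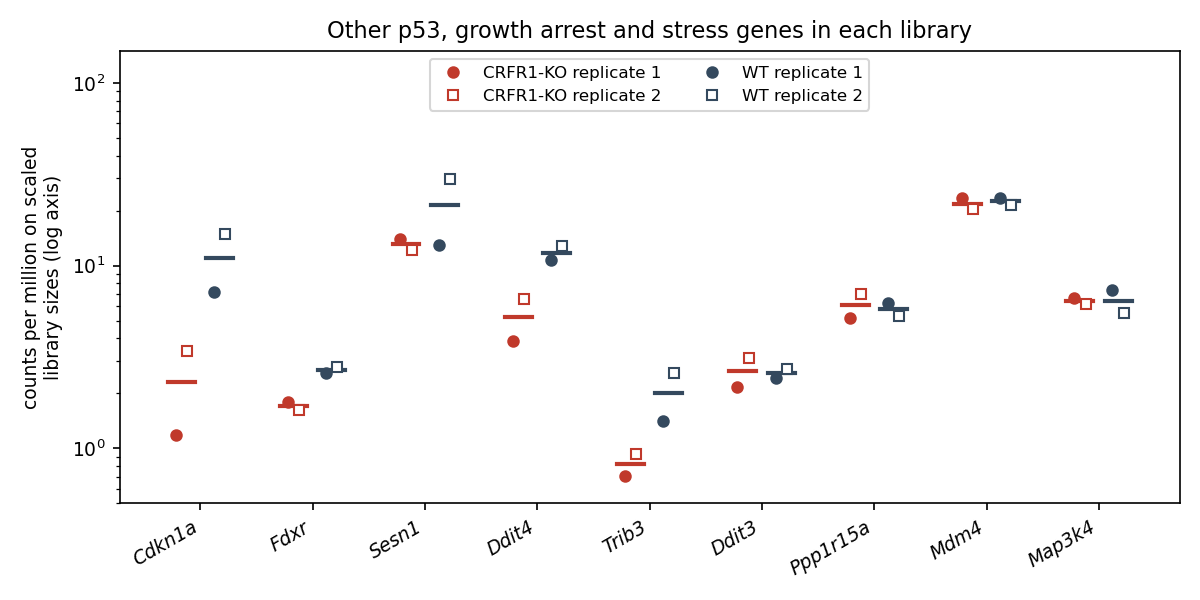
CPM on scaled library sizes (log axis) for 9 genes related to p53, growth arrest and stress, with CRFR1-KO in red and WT in dark blue, replicate 1 as filled circles, replicate 2 as open squares and a bar at the mean of 2 libraries. Cdkn1a, Ddit4, Trib3 and Fdxr lie lower in both CRFR1-KO libraries, while Ddit3, Ppp1r15a, Mdm4 and Map3k4 overlap.

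A list of 15 genes for other proteins that Gadd45 proteins bind, or that act just below them, was read without Cdkn1a, which is described above among the p53 targets. Map3k4 had 6.67 and 6.16 CPM in CRFR1-KO, against 7.36 and 5.47 CPM in WT, a log2 fold change of -0.001 (SE 0.22). Of the 15 tested, 9 were lower and 6 higher, with a median of -0.03, where 50.8% of all genes tested were lower. An unadjusted edgeR p under 0.05 was found for 0 (4.86% of all genes). After adjustment 0 were called by edgeR (0.0264% of all genes), DESeq2 (0.377%) or limma-voom (0.0%). Map2k3, a kinase that activates p38, had 8.18 and 8.68 CPM in CRFR1-KO, against 6.90 and 6.68 CPM in WT (0.31 on the log2 scale, SE 0.18). The JNK gene Mapk9, the kinase gene Map2k4 and the excision repair gene Ercc5 stood at 0.16, -0.12 and 0.45 on the log2 scale. Cdk1 and Ccnb1, the cell cycle kinase and its cyclin, were near the lower end of detection, with 18 and 8 counts in CRFR1-KO and 61 and 23 in WT for Cdk1, and 4 and 10 in CRFR1-KO and 77 and 0 in WT for Ccnb1.

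Other stress genes were compared because GADD34 (Ppp1r15a) and GADD153 (Ddit3, or CHOP) were isolated in the same screens for growth arrest and DNA damage. Ppp1r15a, a phosphatase subunit that ends the integrated stress response, had 5.15 and 6.97 CPM in CRFR1-KO, against 6.23 and 5.29 CPM in WT (log2 fold change 0.07, SE 0.23). Ddit3 had 2.16 and 3.13 CPM in CRFR1-KO, against 2.43 and 2.72 CPM in WT (0.04 on the log2 scale, SE 0.30). Neither separated by genotype. Ddit4 (REDD1), an mTORC1 inhibitor induced by stress and glucocorticoids, had 3.87 and 6.57 CPM in CRFR1-KO, against 10.8 and 12.8 CPM in WT (-1.17 on the log2 scale, SE 0.27). Trib3, a pseudokinase gene, had 0.704 and 0.932 CPM in CRFR1-KO, against 1.42 and 2.58 CPM in WT (-1.28, SE 0.44). Nupr1, a stress gene that is abundant in the pancreas, ran the other way, with 1026 and 886 CPM in CRFR1-KO and 721 and 416 CPM in WT (0.75, SE 0.29). The chaperone gene Dnajb9 had 26.6 and 31.4 CPM in CRFR1-KO, against 24.0 and 15.9 CPM in WT (0.54, SE 0.23). Of the 15 stress genes 8 were lower and 7 higher, with a median of -0.09 on the log2 scale, where 50.8% of all genes tested were lower. In edgeR 2 lower and 1 higher had an unadjusted p under 0.05, beside 3.15% lower and 1.71% higher over all genes. After adjustment 0 passed in edgeR (0.0264% of all genes), with 0 called by DESeq2 (0.377%) and 0 by limma-voom (0.0%).

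The genes whose levels ran most like the Gadd45 genes over the 4 libraries were found by the Euclidean distance between log2(CPM + 0.5) values centred on each gene's mean, among 5736 named genes with a mean of at least 5 CPM. Those nearest to Gadd45g were the ribosomal protein gene copy Rps27rt (distance 0.172), the glutamine synthetase gene Glul (0.205), the elastin gene Eln (0.343), Gdf10, which encodes a TGF-beta family ligand (0.359), and the ribosomal protein gene Rpl7a (0.429). Like Gadd45g, each had its highest value in WT 2, which follows from the way they were found. Those nearest to Gadd45b were Id2, which encodes an inhibitor of helix-loop-helix factors (0.229), Dcdc2a (0.234), the gelatinase gene Mmp2 (0.260), the scavenger receptor gene Scara5 (0.310) and Ctss, which encodes cathepsin S (0.327). The nearest genes of Gadd45g, which was highest in WT 2, and of Gadd45b, which was highest in WT 1, did not coincide. Nothing is read from this. The pseudocount shrinks the genotype difference of Gadd45b, which lay at 1.10 and 1.21 CPM in CRFR1-KO. The log2 fold changes of its nearest genes ran from -1.35 (Mmp2) to -0.86 (Ctss), beside -1.40 for Gadd45b. For Gadd45a the pseudocount exceeds the level of the gene and flattens its profile. The genes nearest to Gadd45a, Nrbp1, Alg11, Wtap, Tufm and Fndc3a, all differed between genotypes by 0.19 or less on the log2 scale. What the nearest genes share with a Gadd45 gene is set by this choice, and over 4 libraries such likeness is a description of these libraries.

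**Figure D5:**
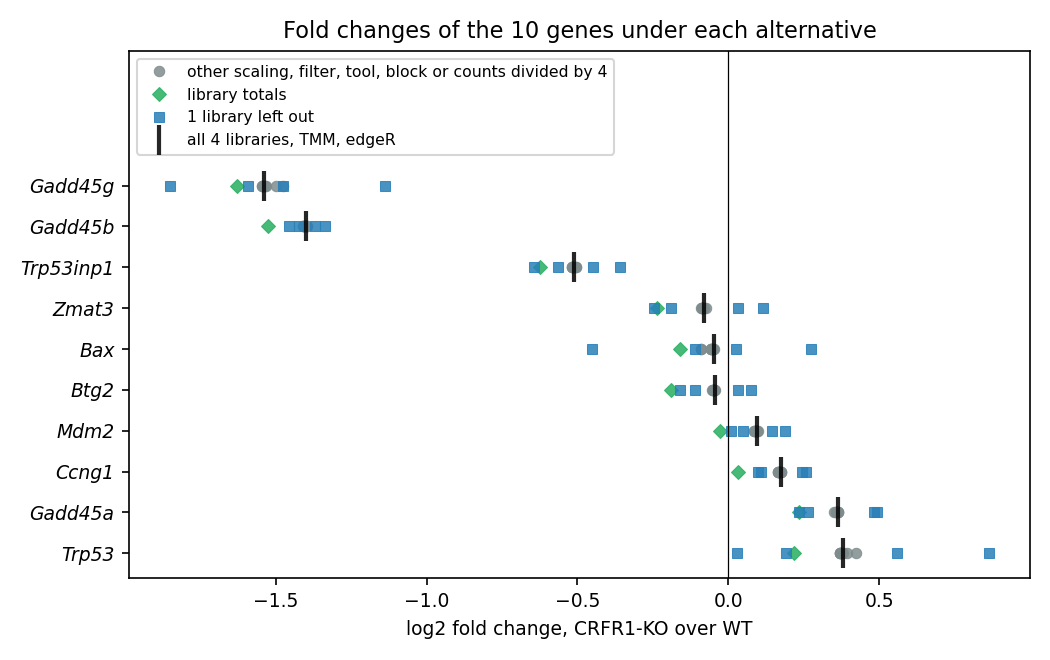
Log2 fold changes, CRFR1-KO over WT, of the 10 genes with all 4 libraries (black bars), with 1 library left out (blue squares), scaled on library totals (green diamonds) and under the other scalings, filters, tools, the replicate block and counts divided by 4 (grey circles). Gadd45b stays between -1.53 and -1.34 and Gadd45g between -1.85 and -1.14, whereas Mdm2, Btg2, Bax and Zmat3 fall on both sides of 0.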

How the data were processed

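Poly(A) RNA from tissue beside Panc02 tumours was sequenced in 4 libraries with dUTP-marked second strands, per the labels' protocols. Raw counts, as whole numbers for each Ensembl gene, were what the authors deposited. FastQC, DESeq2 and edgeR are named without version or role in the submitters' processing notes; the aligner, counter, strand setting, annotation and build are each "not given in the sources used here". The counts 4 were more frequent than 3 or 5 in every library (913, against 349 and 242 genes in WT 1). The reads behind a single count are thus unknown, and intervals and floors refer to the counts as deposited. The Poisson intervals treat each count as 1 independent read, leave out spread between libraries and may be too narrow.

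Symbols, positions and exon lengths (the union of a gene's exons) came from GENCODE M21 on GRCm38, which named 55141 of 55401 identifiers, and promoter sequences from RefSeq on GRCm38.p6. Ddit3 has a second gene model at 0 in every library, which was left out. Genes were tested across the whole table with edgeR 4.0.16 in R 4.3.3: TMM scaling, filterByExpr defaults, the two-sided quasi-likelihood test with genotype in the model and no other term, Benjamini-Hochberg adjustment over 15131 genes, threshold 0.05. SEs came from the F statistic and 95% intervals from the t distribution with the fit's degrees of freedom (prior 5.1). The test was also run on negative binomial counts simulated with the dispersion fitted to these libraries. That run checks the code and does not show how well the dispersion fits these libraries. An exact permutation test of 2 libraries against 2 cannot reach the threshold and was not used.

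The 10 genes and the gene lists were chosen with earlier results of these data known. All 10 are named, and from each other list up to 4 genes with the smallest unadjusted p and a mean of at least 1 CPM, with Cdkn1a, Mdm4, Map3k4, Ppp1r15a and Ddit3 always named; Cdk1, Ccnb1, Bbc3, Pmaip1, Cdkn2a, Trp63 and Trp73 were named after their values were seen. Alternatives were other scalings, filters, DESeq2 1.42.0, limma-voom (limma 3.58.1), a replicate block, leaving out each library and dividing counts by 4. Protein sequences are not shown.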

Additional observations from a re-analysis of the deposited data

How the results depend on the processing

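Over all genes, 4 passed the edgeR threshold, against 57 in DESeq2, 0 in limma-voom (692 at an unadjusted p under 0.05), 7 with the replicate block and between 0 and 69 with 1 library left out (0 without CRFR1-KO 2, 2 without CRFR1-KO 1, 40 without WT 1 and 69 without WT 2). Of the 10 genes, 0 passed in edgeR, 1 in DESeq2 and between 0 and 1 with a library left out, the 1 being Gadd45g without WT 1, which leaves WT a lone library assumed to vary like the others. Of the 60 other p53 genes, 0 passed in edgeR, 1 in DESeq2, 1 with the replicate block (Cdkn1a, adjusted p = 0.0491) and 0 in each fit without a library. Their median log2 fold change of -0.03 was -0.162 on library totals, where the median of all genes was -0.133, and ranged from -0.079 to 0.045 with a library left out. Gadd45a, Gadd45b, Gadd45g, Trp53, Ccng1 and Trp53inp1 kept their sign in every alternative that tested them, Gadd45a in 12 and the others in 14; Mdm2 changed sign on library totals, and Btg2, Bax and Zmat3 each without 2 of the libraries in turn. Gadd45a was not tested with a filter of 1 CPM or with counts divided by 4. The causes of these shifts were not tested. The labels do not pair the libraries: deviations from the group means in CRFR1-KO 1 and WT 1 had a Pearson r of -0.0747 across 15131 genes, which are not independent replicates. With 2 libraries per genotype, the intervals of most of the 10 genes are wide, and at 19 to 29 counts Gadd45a is limited by depth.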

Other observations

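The antiproliferative BTG and TOB genes other than Btg2 lay close together in the 2 genotypes. Tob1, the most abundant, had 62.5 and 64.3 CPM in CRFR1-KO, against 57.5 and 57.3 CPM in WT (log2 fold change 0.14, SE 0.17). Log2 fold changes were -0.16 for Btg1, 0.09 for Btg3 and -0.25 for Tob2 (median of the 4 tested, -0.04), and Btg4 had 0 counts in every library. In the Bcl2 family other than Bax, 9 of 14 tested genes were lower and 5 higher (median -0.37), where 50.8% of all genes tested were lower. Bcl2l11 (BIM), a promoter of apoptosis, had 3.33 and 2.69 CPM in CRFR1-KO, against 4.13 and 4.06 CPM in WT (-0.44, SE 0.24). Bcl2l1 (BCL-XL), which protects from apoptosis, had 4.43 and 4.98 CPM in CRFR1-KO, against 5.66 and 6.04 CPM in WT (-0.31, SE 0.20), and Bcl2l2 stood at 0.30. Bmf had 2.14 and 1.97 CPM in CRFR1-KO, against 4.67 and 1.94 CPM in WT, with WT 1 alone standing high. In both groups 0 genes passed after adjustment in edgeR (0.0264% of all genes), DESeq2 (0.377%) or limma-voom (0.0%). An unadjusted edgeR p under 0.05 was found for 0, beside 4.86% of all genes, and lists this short say little at such shares.

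Genes that share inducers with Gadd45b and Gadd45g were also read out, and a shared inducer was not tested. Over all genes tested, 50.8% were lower in CRFR1-KO and 4.86% had an unadjusted edgeR p under 0.05. Of 11 tested NF-kappaB feedback genes 9 were lower and 2 higher (median log2 fold change -0.20), with 0 at an unadjusted edgeR p under 0.05. Nfkbia, encoding the inhibitor IkappaB-alpha, had 3.82 and 4.12 CPM in CRFR1-KO, against 4.5 and 6.65 CPM in WT (-0.49, SE 0.25). Icam1, Rela and Nfkb1 stood at -0.64, -0.20 and 0.12. Of 18 tested immediate early genes 14 were lower and 4 higher (median -0.32), with 1 at an unadjusted edgeR p under 0.05, Socs3, at 2.48 and 2.38 CPM in CRFR1-KO, against 5.70 and 2.90 CPM in WT (-0.83, SE 0.35). Nr4a1, Junb and Ier5 stood at -0.62, -0.90 and -0.45. The sum of the 20 proliferation markers was 27.7 and 26.5 CPM in CRFR1-KO and 43.9 and 15.6 CPM in WT, so the CRFR1-KO libraries lay between the WT libraries. Mki67, encoding the proliferation antigen Ki-67, had 56 and 116 counts in CRFR1-KO, against 410 and 7 in WT. Of 18 tested proliferation genes 12 were lower and 6 higher (median -0.64), with 0 at an unadjusted edgeR p under 0.05, and Mcm6, Mcm2 and Tyms stood at -0.57, 0.54 and 0.29. After adjustment 0 genes of these 3 lists passed in edgeR (0.0264% of all genes), DESeq2 (0.377%) or limma-voom (0.0%).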
